A study of Mus musculus with 9 samples.

Results

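The Hist genes encode the replication-dependent histones, which sit in 4 clusters of the mouse genome. They were taken here as every protein-coding gene whose GENCODE M21 symbol starts with Hist1h, Hist2h, Hist3h or Hist4h, which gave 67 genes among 55335 gene identifiers. There are 54 in Hist1 on chromosome 13, 10 in Hist2 on chromosome 3, 2 in Hist3 on chromosome 11 and 1 in Hist4 on chromosome 6. By class they are 6 H1, 18 H2A, 18 H2B, 12 H3 and 13 H4 genes. Their transcripts were compared in D2A1-d cells, a mouse breast carcinoma line from studies of dormant metastases, by RNA-seq of total RNA in 9 libraries. The groups were cells with the hairpin shMed4 #4, cells with the hairpin shMed4 #1 and cells with a non-targeting control hairpin (NTC), with 3 libraries each. Both shMed4 hairpins target Med4, a subunit of the Mediator complex that connects transcription factors with RNA polymerase II. All groups are transduced cells of the same line, kept in medium with 10% fetal bovine serum, and no animals were involved. The labels number biological replicates without saying whether they were transduced separately. The p-values therefore reflect only how far these libraries vary.

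Core histones H2A, H2B, H3 and H4 form the nucleosome, and linker histone H1 binds the DNA that enters and leaves it. Replication-dependent histone genes are transcribed mainly in S phase, under the coactivator NPAT, when new DNA has to be packaged. Most of their mRNAs have no poly(A) tail and end soon after a conserved stem-loop that is bound by SLBP, although several genes also give polyadenylated transcripts that run past it. Whether these libraries were made by poly(A) selection is not given in the sources used here.

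The stem-loop is the sequence feature that ties the family together, so it was searched in the annotated transcripts. The search asked for 16 bases that start with GG, with 6 bases that pair with the last 6 and a 4-base loop that starts with T, within 100 bases after the stop codon. It was found in 46 members, starting 22 to 59 bases after the stop, and in 27 of 21695 other protein-coding genes (0.124%). Of the 21 members without a match, 17 are annotated with 50 or fewer bases after the stop, so the window hardly reaches the place. The sites of 7 members described here are given from the GENCODE M21 transcripts, with the stem-loop in capitals.
Hist1h1c: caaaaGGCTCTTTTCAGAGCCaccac
Hist1h2ac: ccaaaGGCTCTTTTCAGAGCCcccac
Hist2h2aa2: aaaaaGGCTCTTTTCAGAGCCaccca
Hist2h2ac: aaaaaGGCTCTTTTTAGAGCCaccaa
Hist1h3g: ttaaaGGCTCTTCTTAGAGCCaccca
Hist1h4i: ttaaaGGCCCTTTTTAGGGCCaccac
Hist2h4: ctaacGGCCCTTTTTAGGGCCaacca
The form of the first 3 sites, with the loop TTTC, was the commonest, in 26 members of classes H1, H2A, H2B and H3. Hist2h2ac and Hist1h3g each had a form that no other member had. Hist1h4i and Hist2h4 shared theirs, with a stem that starts GGCCCT and the loop TTTT.

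Hist2h2be held the most reads of any member. It is read away from Hist2h2ac, and the GENCODE M21 starts of the pair lie on either side of a stretch of 238 bases at chr3:96220881-96221118. Its sequence is from the RefSeq promoter table (GRCm38.p6), which held a match for Hist2h2ac but not for Hist2h2be. The stretch is shown on the minus strand, from the start of Hist2h2be on the left to that of Hist2h2ac on the right. It was chosen as the promoter region of the member with most reads and of a partner with few.
Hist2h2ac-Hist2h2be: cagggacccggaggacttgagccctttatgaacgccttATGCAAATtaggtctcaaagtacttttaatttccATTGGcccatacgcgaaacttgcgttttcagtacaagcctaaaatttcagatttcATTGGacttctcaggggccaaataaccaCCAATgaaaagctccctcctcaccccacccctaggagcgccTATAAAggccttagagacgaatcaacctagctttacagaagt
The capitals mark the octamer ATTTGCAT on the other strand (bases 39 to 46), CCAAT (bases 156 to 160, and on the other strand 73 to 77 and 128 to 132) and TATAAA (bases 197 to 202), numbered from the left end. These motifs do not overlap here. Of the 67 members, 62 matched a RefSeq promoter, and Hist2h2be was not among them. The 250 bases before each start were searched on both strands. The octamer was in 13 of 62 members, 7 of 18 H2A and 6 of 16 H2B, and in 1.61% of the 27025 promoters in the table. CCAAT was in 82.3% of members and in 34.5% of all promoters, with H4 the class that held it least often, in 3 of 12. TATAAA was in 46.8% of members and 13.0% of all promoters. The H1 box letters AAACACA were in 5 of 6 H1 members and in 6.22% of all promoters. A match describes the letters in this window and not a site in use.

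The libraries held 7572114 to 8582235 reads assigned to genes. Med4 had 66, 60 and 50 reads with shMed4 #4, 40, 35 and 38 with shMed4 #1, and 236, 216 and 204 in NTC, so no knockdown library reached the NTC range. Its level was 26.3% of NTC with shMed4 #4 (log2 fold change -1.92, SE 0.13, edgeR adjusted p = 8.44e-16). It was 16.6% with shMed4 #1 (log2 fold change -2.59, SE 0.14, edgeR adjusted p = 3.92e-18). Of the carcinoma line's markers, Krt8 averaged 53.9 ± 3.33 CPM with shMed4 #4, 19.2 ± 0.492 with shMed4 #1 and 3.93 ± 0.408 in NTC (SD, n = 3 each; CPM is the read count scaled by library size and TMM factor). Krt18 was at 649% of NTC with shMed4 #4 and 395% with shMed4 #1, and Acta2 at 473% and 334%. Vim, with 111028 reads over all libraries, was at 56.5% and 77.0% of NTC (all edgeR adjusted p under 0.05). Krt14 had 16 reads over all libraries. Cdh1 had 0 reads and Epcam 1 over all libraries, so these epithelial markers were absent or nearly so. The 9 markers of leukocytes, endothelium and fibroblasts summed to 112 to 120 CPM with shMed4 #4, 113 to 118 with shMed4 #1 and 129 to 151 in NTC, nearly all of it Pdgfrb. Pdgfrb changed by -0.33 on the log2 scale with shMed4 #4 and -0.32 with shMed4 #1 (both edgeR adjusted p under 0.05). Kdr and Lum had 1 read each and Tyrobp 7. The endothelial marker Cdh5, with 137 reads, rose with shMed4 #4 (log2 fold change 1.41, edgeR adjusted p = 0.00141) and with shMed4 #1 (1.55, edgeR adjusted p = 0.000624). The leukocyte marker Cd68, with 274 reads, changed by -0.41 with shMed4 #4, which did not pass (edgeR adjusted p = 0.12), and fell by 0.81 with shMed4 #1 (edgeR adjusted p = 0.00564). The part of these markers in the histone results was not tested.

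Histone transcripts made up a small share of all reads. The 67 members together had 4271 reads, or 58.1 CPM over all libraries, without scaling. No read fell on 6 of them. For Hist3h2ba, Hist1h2aa and Hist1h2ba this allows a level of up to 0.0408 CPM over all libraries (3 reads, counting error only). The other 3, Hist2h2aa1, Hist1h2br and Hist2h3c1, have at least 88.7% of their 50-base windows in another gene, so a count of 0 sets no limit on their level. A further 29 had 1 to 19 reads, and 17 had 20 or more but did not pass the low-count filter. The filter left 15 members, with 76.7% of the reads of the family, and Hist2h2be alone had 22.5%. The members are close copies of each other, and 34 of them have at least 50% of their 50-base windows in another gene, so reads of such genes may be lost or misplaced. These 34 hold 838 of the 4271 reads.

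With shMed4 #4 the summed level of the family was well below that of both other groups, and so was that of every class. The 67 members summed to 30.1, 27.7 and 28.0 CPM with shMed4 #4, to 69.6, 65.5 and 71.5 with shMed4 #1 and to 72.4, 79.3 and 80.8 in NTC. The shMed4 #4 libraries lay far below the rest, while the highest shMed4 #1 library came within 1 CPM of the lowest NTC library. The mean sum was 36.9% of NTC with shMed4 #4 (log2 ratio -1.44) and 88.9% with shMed4 #1 (log2 ratio -0.17). No p is given for sums, and without Hist2h2be the shMed4 #1 and NTC libraries overlapped. In bulk RNA, fewer cells that express these genes and less transcript per cell cannot be told apart.

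Among the classes, the sum with shMed4 #4 lay between 30.9% of NTC for H4 and 39.5% for H2B, and in no class did shMed4 #4 libraries overlap those of another group. H1 summed to 4.95 ± 0.331 CPM with shMed4 #4, 15.7 ± 0.396 with shMed4 #1 and 13.4 ± 2.57 in NTC (SD, n = 3 each). H2A summed to 4.42 ± 0.969 CPM with shMed4 #4, 9.0 ± 0.955 with shMed4 #1 and 12.8 ± 0.882 in NTC. H2B, the class with the most reads, summed to 12.2 ± 0.420 CPM with shMed4 #4, 29.1 ± 0.626 with shMed4 #1 and 31.0 ± 1.21 in NTC. The 4 core classes were lower on average with shMed4 #1 than in NTC, and only H1 was higher, at 118% of NTC, though the H1 libraries of these groups overlapped. H3 summed to 3.56 ± 0.306 CPM with shMed4 #4, 7.01 ± 1.74 with shMed4 #1 and 9.27 ± 1.05 in NTC, with the last pair overlapping too. H4 summed to 3.40 ± 0.729 CPM with shMed4 #4, 7.99 ± 1.55 with shMed4 #1 and 11.01 ± 0.992 in NTC, with no overlap. Without Hist1h1c, the H1 sum was 29.1% of NTC with shMed4 #4 and 77.4% with shMed4 #1.

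**Figure D1:**
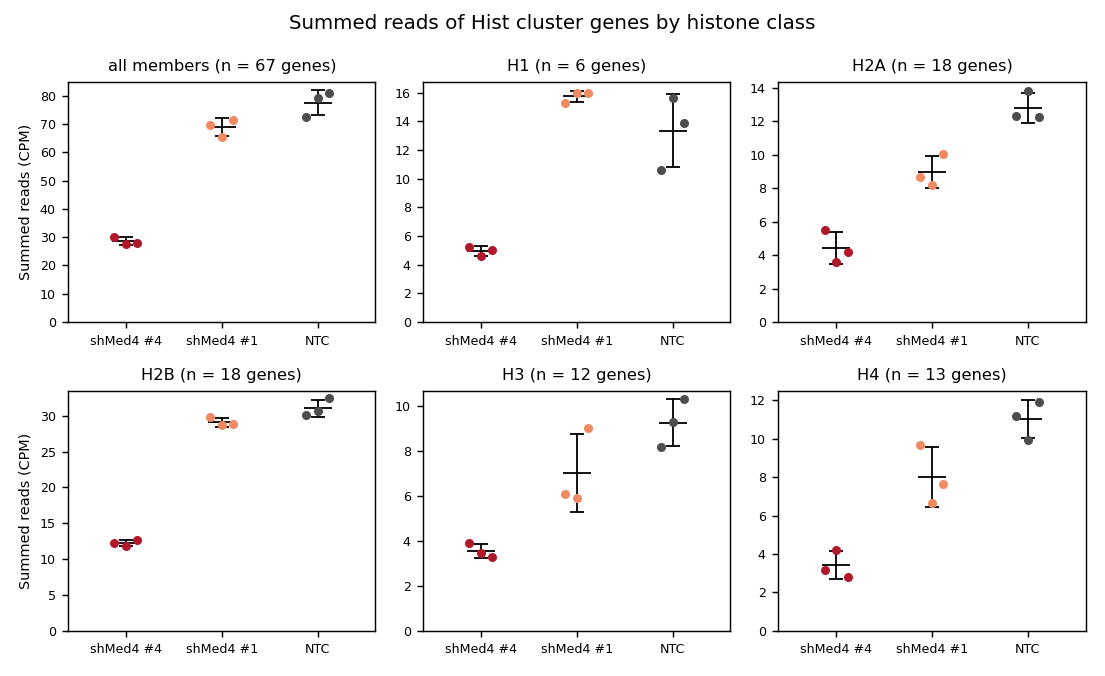
Summed reads of the 67 Hist cluster genes and of each class, in CPM (y axes, linear, from 0), for shMed4 #4, shMed4 #1 and NTC. Points are libraries, and bars are the mean and SD of 3. In every panel the shMed4 #4 points lie below all others, and H1 is the panel in which the shMed4 #1 mean, 15.7, is above the NTC mean, 13.4.

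The lower sum with shMed4 #4 extended to members with too few reads for a test of each gene. The 52 members not tested summed to 8.03 ± 0.653 CPM with shMed4 #4, 14.4 ± 2.08 with shMed4 #1 and 18.4 ± 0.524 in NTC (SD, n = 3 each), with no overlap between groups. Members with at least 50% of their windows in another gene stood at 36.5% of NTC with shMed4 #4, and the others at 37.0%. The Hist1 cluster stood at 40.6% of NTC with shMed4 #4 and at 98.2% with shMed4 #1. The Hist2 cluster stood at 30.0% and 76.3%. The 2 Hist3 genes summed to 0.820 ± 0.0763 CPM with shMed4 #4, 0.961 ± 0.101 with shMed4 #1 and 1.44 ± 0.999 in NTC, with all groups overlapping.

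Grouped by annotated 3′ end, the members' sums with shMed4 #4 ran between 32.3 and 40.5% of NTC. The 23 members annotated to end within 100 bases of the stem-loop stood at 32.3% of NTC with shMed4 #4 and at 76.4% with shMed4 #1. The 23 members annotated to run further stood at 36.7% with shMed4 #4 and at 93.1% with shMed4 #1, or 35.1% and 78.9% without Hist1h1c. A group of 4 with no stem-loop found and over 100 bases after the stop, which includes Hist2h2be and Hist1h2bc, stood at 39.6% and 93.4%. The 17 with no stem-loop found and 100 bases or fewer after the stop stood at 40.5% and 72.9%.

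Each of the 15 tested members was tested in a fit across 14335 genes. With shMed4 #4 against NTC, 14 fell and 0 rose (edgeR adjusted p under 0.05), where 27.3% of all genes tested were lower and 27.8% higher. Their median log2 fold change was -1.76, against -0.01 for all genes tested. With shMed4 #1 against NTC, 2 rose and 3 fell, where 21.8% of all genes tested were higher and 19.8% lower, and the median was -0.34. The 5 calls with shMed4 #1 were 3 without NTC replicate 2, NTC replicate 3, shMed4 #1 replicate 1 or shMed4 #1 replicate 2, and 2 with DESeq2, both of them rises. The direct comparison of shMed4 #4 with shMed4 #1 had 12 lower and 0 higher, where 13.9% of all genes tested were lower and 14.2% higher, with a median of -1.39. For the mean of the hairpins against NTC, 11 were lower and 0 higher, where 26.5% of all genes tested were lower and 26.8% higher. The comparisons against NTC share the NTC libraries, and counts over the 15 describe the members that passed the low-count filter and not the family. The filter asks for about 10 reads in 3 libraries of any group, and 9 of the 15 passed with no shMed4 #4 library at that level. Hist1h2bp passed through NTC libraries only. With Hist1h2ac, Hist1h1e and Hist1h3g it makes 4 members at that level in 3 NTC libraries but in fewer than 3 of each hairpin. Such members are tested because they are high in the other groups. Neither the counts of lower calls nor the medians of the 15 therefore give support to a fall of the family. Hist2h2be, Hist1h1c and Hist1h2bc passed in all 9 libraries, and of these Hist2h2be and Hist1h1c fell with shMed4 #4. Without the low-count filter, 61 members entered the fit, and 55 of them were below 0 with shMed4 #4 against NTC. Their median log2 fold change was -1.26, against -0.01 for all genes in that fit. Of these 61, 19 passed and 0 of them were higher, where 13.9% of all 28321 genes in that fit were lower and 14.8% higher.

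**Figure D2:**
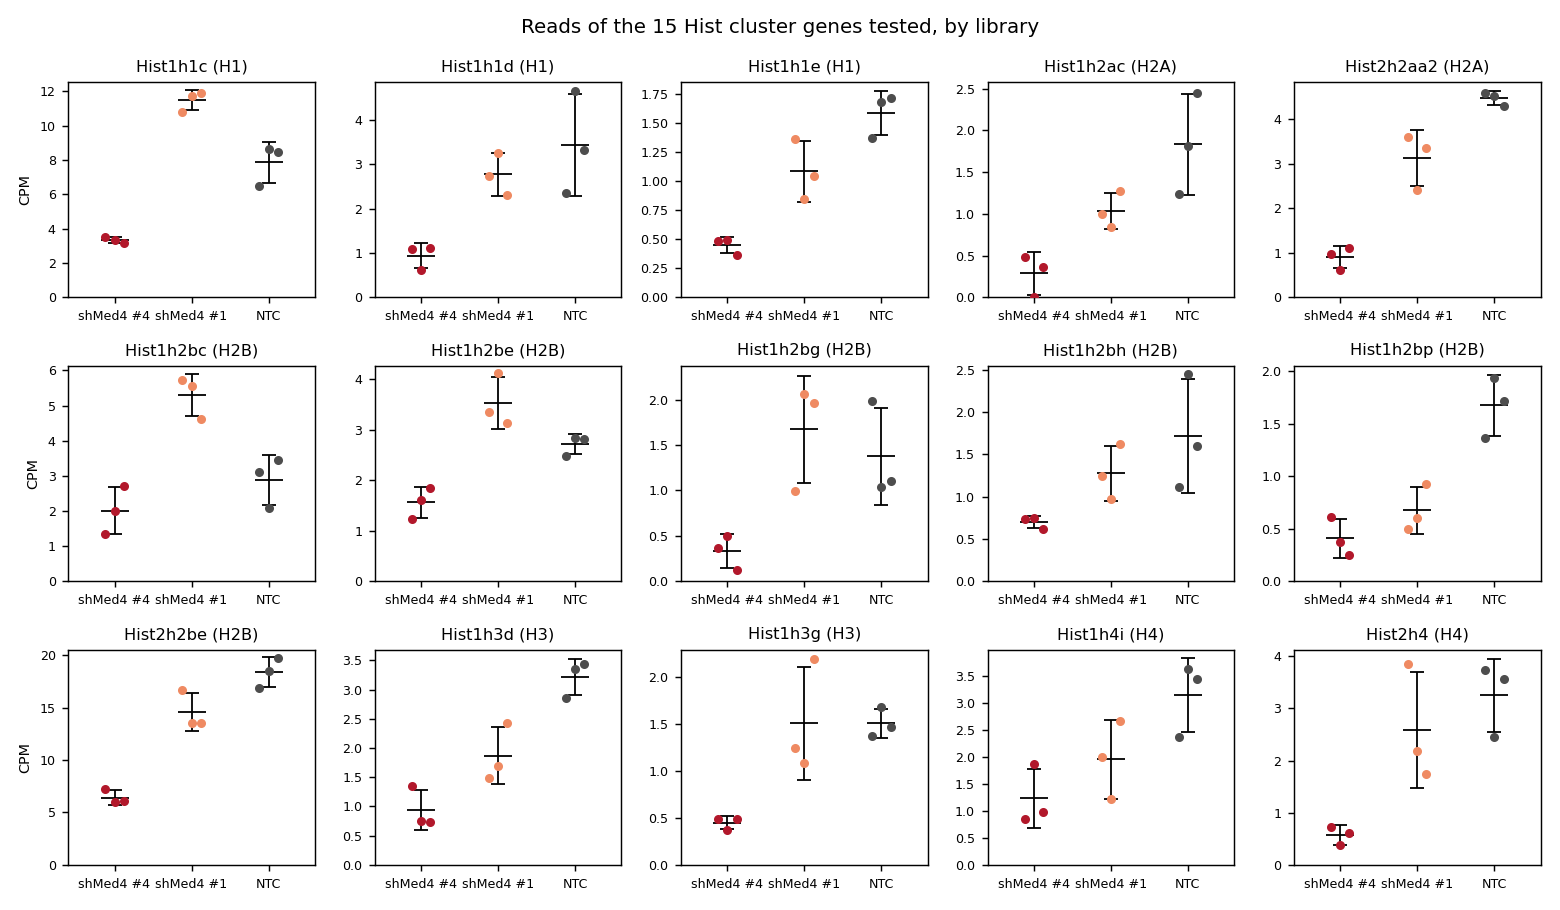
Level of the 15 tested Hist cluster genes in CPM (y axes, linear, from 0, different in each panel) in each library of shMed4 #4, shMed4 #1 and NTC, with mean and SD of 3 libraries. The shMed4 #4 and NTC libraries of Hist1h2bc overlap. Of the 15 genes, 9 passed the low-count filter with no shMed4 #4 library at its minimum, which favours groups that lie apart. Hist1h1c, Hist1h2bc and Hist1h2be are the genes whose shMed4 #1 libraries all lie above all NTC libraries.

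Among the linker histones, Hist1h1c moved in opposite directions with the hairpins. It had 29, 27 and 26 reads with shMed4 #4, 87, 97 and 103 with shMed4 #1 and 52, 67 and 69 in NTC (ENSMUSG00000036181.2, chr13:23738808-23740367 in GRCm38). All 3 groups were apart, with shMed4 #1 the highest and shMed4 #4 the lowest. Against NTC it changed by -1.22 on the log2 scale with shMed4 #4 (SE 0.19, edgeR adjusted p = 1.03e-06) and 0.55 with shMed4 #1 (SE 0.15, edgeR adjusted p = 0.00274). Hist1h1d and Hist1h1e encode other somatic H1 proteins. Hist1h1d had 9, 5 and 9 reads with shMed4 #4, 22, 27 and 20 with shMed4 #1 and 19, 36 and 27 in NTC. Its fall with shMed4 #4 was -1.85 (SE 0.34, edgeR adjusted p = 1.5e-05), and the shMed4 #1 and NTC libraries overlapped. Hist1h1e had 4, 4 and 3 reads with shMed4 #4, 11, 7 and 9 with shMed4 #1 and 11, 13 and 14 in NTC, and its log2 fold change with shMed4 #4 was -1.78 (SE 0.44, edgeR adjusted p = 0.000785). It was at the filter's level in 3 NTC libraries, 1 of shMed4 #1 and 0 of shMed4 #4. Other genes share 25.7% of its exon sequence, and 32.0% of its 50-base windows occur in another gene.

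The H2A genes encode the histone that pairs with H2B in the outer part of the nucleosome. Hist1h2ac had 4, 0 and 3 reads with shMed4 #4, 8, 7 and 11 with shMed4 #1 and 10, 14 and 20 in NTC. Its log2 fold change of -2.62 with shMed4 #4 (SE 0.52, edgeR adjusted p = 5.51e-05) was the lowest of the 15, and its counts with shMed4 #4 are at or near the limit of detection. It was at the filter's level in 3 NTC libraries, 1 of shMed4 #1 and 0 of shMed4 #4. Hist2h2aa2 had 8, 5 and 9 reads with shMed4 #4, 29, 20 and 29 with shMed4 #1 and 37, 35 and 35 in NTC, with the 3 groups apart. It changed by -2.29 with shMed4 #4 (SE 0.30, edgeR adjusted p = 4.03e-08) and by -0.51 with shMed4 #1, which did not pass (SE 0.23, edgeR adjusted p = 0.069). All of its 50-base windows occur in another gene and all of its exon sequence lies over a feature annotated on the other strand, so its count is uncertain. Hist2h2ac, not tested, had 3, 2 and 2 reads with shMed4 #4, 4, 6 and 10 with shMed4 #1 and 8, 8 and 16 in NTC. Its partner across the printed promoter, Hist2h2be, had many more reads but the same order of the groups.

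H2B held the member with the most reads and the member that did not pass with shMed4 #4. Hist2h2be had 59, 48 and 50 reads with shMed4 #4, 134, 112 and 117 with shMed4 #1 and 136, 143 and 161 in NTC (ENSMUSG00000068854.7, chr3:96221119-96223738). The shMed4 #4 libraries had fewer than any other, and the highest shMed4 #1 library came close to the lowest NTC library. Relative to NTC it changed by -1.51 on the log2 scale with shMed4 #4 (SE 0.14, edgeR adjusted p = 9.58e-12) and -0.34 with shMed4 #1 (SE 0.12, edgeR adjusted p = 0.0207). The call with shMed4 #1 was lost without shMed4 #1 replicate 2, shMed4 #1 replicate 3, NTC replicate 2 or NTC replicate 3 and with DESeq2 (adjusted p up to 0.117). Hist1h2bc had 11, 16 and 22 reads with shMed4 #4, 46, 46 and 40 with shMed4 #1 and 25, 16 and 28 in NTC (ENSMUSG00000018102.5, chr13:23684199-23692908). It was the tested member that did not pass with shMed4 #4 (log2 fold change -0.52, SE 0.29, edgeR adjusted p = 0.128), while with shMed4 #1 it rose by 0.87 (SE 0.23, edgeR adjusted p = 0.00268). Hist1h2bc lies head to head with Hist1h2ac (chr13:23681467-23683948, minus strand), the member with the lowest log2 fold change with shMed4 #4. The difference between these partners was not tested.

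Hist1h2be came next to Hist1h2bc in the order of change with shMed4 #4. It had 10, 13 and 15 reads with shMed4 #4, 27, 34 and 27 with shMed4 #1 and 20, 22 and 23 in NTC, with all groups apart. It changed by -0.80 with shMed4 #4 (SE 0.29, edgeR adjusted p = 0.0209) and by 0.37 with shMed4 #1, which did not pass (edgeR adjusted p = 0.23). The call with shMed4 #4 was lost without shMed4 #4 replicate 1, NTC replicate 2 or NTC replicate 3 and with DESeq2 (adjusted p up to 0.108). It shares 11.2% of its exon sequence with other genes. Hist1h2bg had 3, 4 and 1 reads with shMed4 #4, 8, 17 and 17 with shMed4 #1 and 16, 8 and 9 in NTC, so only shMed4 #4 stood apart. Its log2 difference between shMed4 #4 and shMed4 #1, -2.31, was the largest among the 15 (SE 0.51, edgeR adjusted p = 0.000587). Hist1h2bp, tested on the strength of its NTC libraries, had fewer reads with both hairpins, with 5, 3 and 2 reads with shMed4 #4, 4, 5 and 8 with shMed4 #1 and 11, 15 and 14 in NTC. It fell by 1.99 with shMed4 #4 (edgeR adjusted p = 0.000338) and by 1.28 with shMed4 #1 (edgeR adjusted p = 0.0104), the second call being lost without shMed4 #1 replicate 1 and with DESeq2 (adjusted p up to 0.101). The hairpins did not differ at the threshold (edgeR adjusted p = 0.365). Hist1h2bh, with 6, 6 and 5 reads with shMed4 #4, 10, 8 and 14 with shMed4 #1 and 9, 19 and 13 in NTC, fell by 1.28 with shMed4 #4 (edgeR adjusted p = 0.00835), a call lost without NTC replicate 2 and with DESeq2 (adjusted p up to 0.0927).

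H3 and H4 form the tetramer at the core of the nucleosome. Hist1h3d had 11, 6 and 6 reads with shMed4 #4, 12, 14 and 21 with shMed4 #1 and 23, 26 and 28 in NTC. The groups did not overlap, and it fell with each hairpin, by 1.76 with shMed4 #4 (edgeR adjusted p = 2.15e-05) and by 0.77 with shMed4 #1 (edgeR adjusted p = 0.0255). The call with shMed4 #1 was lost without shMed4 #1 replicate 1, shMed4 #1 replicate 2, NTC replicate 2 or NTC replicate 3 and with DESeq2 (adjusted p up to 0.152). Hist1h3g had 4, 3 and 4 reads with shMed4 #4, 10, 9 and 19 with shMed4 #1 and 11, 13 and 12 in NTC. It fell with shMed4 #4 (log2 fold change -1.71, edgeR adjusted p = 0.0019), its shMed4 #1 libraries overlapped those of NTC, and 54.1% of its windows occur in another gene. Hist2h4 had 6, 3 and 5 reads with shMed4 #4, 31, 18 and 15 with shMed4 #1 and 30, 19 and 29 in NTC. Its log2 fold change of -2.47 with shMed4 #4 (SE 0.39, edgeR adjusted p = 1.35e-06) was second only to that of Hist1h2ac among the 15. Hist1h4i, whose stem-loop is the same as that of Hist2h4, had 7, 15 and 8 reads with shMed4 #4, 16, 10 and 23 with shMed4 #1 and 19, 28 and 28 in NTC. It changed by -1.34 with shMed4 #4 (SE 0.33, edgeR adjusted p = 0.000833), and its hairpin groups overlapped.

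**Figure D3:**
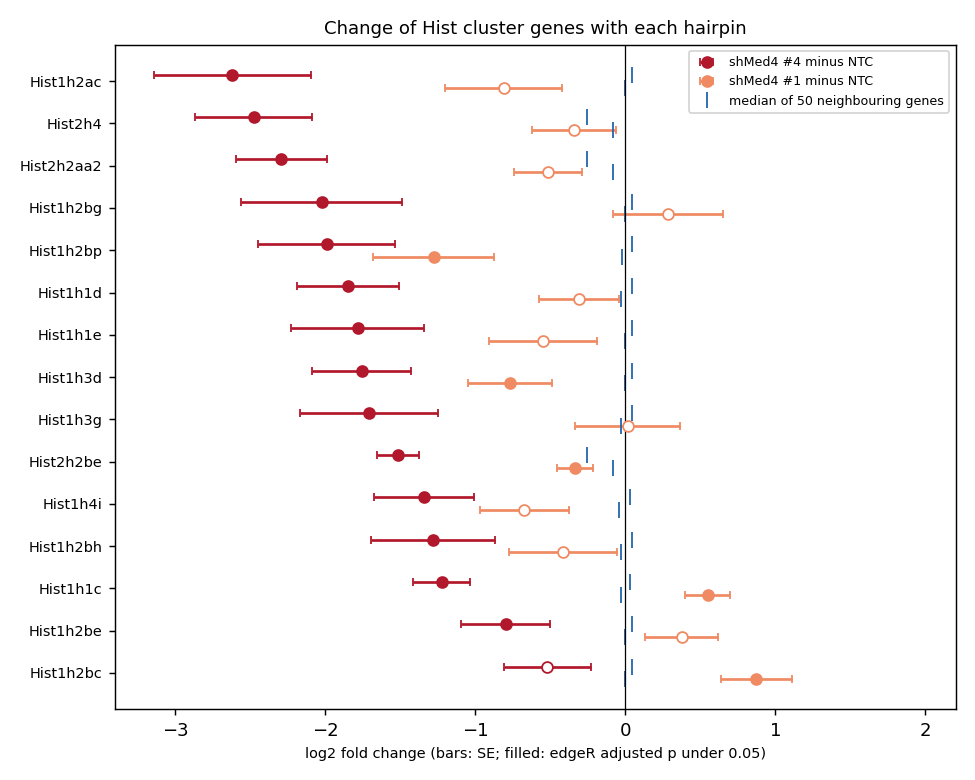
Log2 fold change of the 15 tested Hist cluster genes (x axis) with shMed4 #4 and with shMed4 #1 against NTC, with SE bars, ordered by the change with shMed4 #4. Filled points passed edgeR's adjusted p of 0.05, and ticks mark the median change of 50 tested neighbours outside the family. All 15 shMed4 #4 points lie below 0, from -2.62 to -0.52, while the shMed4 #1 points run from -1.28 to 0.87. As 9 of the 15 passed the low-count filter with no shMed4 #4 library at its minimum, the choice of genes favours points below 0. Without that filter, 55 of 61 members were below 0 with shMed4 #4 and 5 above.

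Genes around the clusters moved little beside the changes of the tested members with shMed4 #4. The median log2 fold change of the 25 tested neighbours on each side was -0.01 to 0.05 around the Hist1 members with shMed4 #4, and -0.26 to -0.25 around the Hist2 members. With shMed4 #1 these medians were -0.04 to 0.00 around Hist1 and -0.08 around Hist2.

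Levels between genes can be set side by side only per length. Per kilobase of exon, Hist2h2aa2 averaged 1.70 CPM with shMed4 #4, 5.92 with shMed4 #1 and 8.47 in NTC. Hist2h2be averaged 2.45 CPM per kilobase with shMed4 #4, 5.56 with shMed4 #1 and 7.02 in NTC. Hist1h1c averaged 2.15 CPM per kilobase with shMed4 #4, 7.36 with shMed4 #1 and 5.04 in NTC. Hist1h1c therefore had the highest mean level per length of these with shMed4 #1, and Hist2h2aa2 in NTC. All 50-base windows of Hist2h2aa2 occur in another gene, so its level and its place in this order are uncertain.

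The 17 untested members with 20 or more reads did not all follow the order of the summed level. Hist1h4d, an H4 gene, had 4, 3 and 4 reads with shMed4 #4, 15, 9 and 9 with shMed4 #1 and 12, 5 and 8 in NTC, with shMed4 #4 apart from both. Hist1h4b had 3, 2 and 1 reads with shMed4 #4, 7, 2 and 9 with shMed4 #1 and 10, 7 and 11 in NTC. Hist3h2a, an H2A gene of the Hist3 cluster and the untested member with the most reads, had 6, 7 and 7 reads with shMed4 #4, 8, 7 and 9 with shMed4 #1 and 6, 20 and 8 in NTC, so its groups overlapped. Hist1h2ae overlapped between all groups too, with 8, 2 and 2 reads with shMed4 #4, 4, 8 and 10 with shMed4 #1 and 9, 7 and 3 in NTC.

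Features annotated on the strand opposite to histone genes were lowest in sum with shMed4 #4, but not each of them was. At 21 members there were 22 such features, with 1828 reads against 739 of the members they lie over. They summed to 11.7 ± 2.68 CPM with shMed4 #4, 25.2 ± 1.74 with shMed4 #1 and 38.2 ± 6.09 in NTC (SD, n = 3 each), with no overlap between groups. The 5 antisense genes among them stood at 20.4% of NTC with shMed4 #4 and the 17 predicted miRNA genes at 52.9%. Of 19 features with a read, 13 had the fewest with shMed4 #4 and 6 did not. Gm19658, over Hist1h2ao, had 22 reads with shMed4 #4, 13 with shMed4 #1 and 15 in NTC, and Gm44466, over Hist1h2ap, had 20, 16 and 14 in that order of groups. The antisense genes with the most reads were Gm20632 and Gm20633. Gm20632, an antisense gene over Hist2h2aa2, had 13, 16 and 12 reads with shMed4 #4, 79, 72 and 64 with shMed4 #1 and 83, 94 and 132 in NTC. Gm20633, an antisense gene over Hist2h2aa1, had 13, 17 and 7 reads with shMed4 #4, 30, 34 and 30 with shMed4 #1 and 34, 52 and 64 in NTC, whereas Hist2h2aa1 itself had none. The strand settings of the libraries and of the count are not stated in the sources used here. Hist2h2aa2 had 207 reads although all of its exon sequence lies over a feature on the other strand. A count that ignored the strand would leave such reads ambiguous. Whether the libraries kept the strand is not known, so reads of a histone gene and of such a partner cannot be told apart.

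Replacement histones, which come from genes outside this family and are mostly not tied to S phase, held both rises and falls. Of 11 tested, 1 rose and 3 fell with shMed4 #4 against NTC (median log2 fold change -0.04), where 27.8% of all genes tested were higher and 27.3% lower. With shMed4 #1, 2 rose and 2 fell (median -0.03), where 21.8% were higher and 19.8% lower. H3f3a, which encodes H3.3, averaged 233 ± 7.09 CPM with shMed4 #4, 290 ± 22.2 with shMed4 #1 and 345 ± 6.98 in NTC (SD, n = 3 each). It changed by -0.57 with shMed4 #4 (edgeR adjusted p = 1.55e-11) and by -0.25 with shMed4 #1 (edgeR adjusted p = 0.000169). H2afy, the macroH2A gene, changed by -0.31 and -0.26, and the linker histone gene H1f0 by 0.29 and 0.34, with shMed4 #4 and shMed4 #1 in that order (all edgeR adjusted p under 0.05). H2afx, whose H2A protein marks DNA breaks and whose transcript also holds the stem-loop, changed by 0.09 with shMed4 #4, which did not pass (edgeR adjusted p = 0.337), and rose by 0.55 with shMed4 #1 (edgeR adjusted p = 1.52e-07). H3f3a shares 22.8% and H2afx 10.2% of their exon sequence with other genes.

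Genes for histone transcription and 3′ end processing changed in both directions. Of 22 tested, 9 rose and 2 fell with shMed4 #4 against NTC, where 27.8% of all genes tested were higher and 27.3% lower. With shMed4 #1, 7 rose and 2 fell, where 21.8% were higher and 19.8% lower (medians 0.05 with shMed4 #4 and 0.02 with shMed4 #1). The members that fell with shMed4 #4 were Zfp473, a factor of histone 3′ end processing, by 0.61 (SE 0.21, edgeR adjusted p = 0.0145), and Srrt, a partner of the cap-binding complex, by 0.21 (edgeR adjusted p = 0.000761). Those that fell with shMed4 #1 were Srrt, by 0.14 (edgeR adjusted p = 0.0308), and the kinase gene Cdk2, by 0.17 (edgeR adjusted p = 0.049). Npat, the coactivator of these genes, averaged 68.3 ± 1.8 CPM with shMed4 #4, 71.7 ± 4.13 with shMed4 #1 and 70.7 ± 6.52 in NTC (SD, n = 3 each), and did not pass in either comparison (edgeR adjusted p = 0.564 and 0.823). Slbp, which encodes the stem-loop binding protein, averaged 95.1 ± 1.10 CPM with shMed4 #4, 101 ± 2.21 with shMed4 #1 and 86.6 ± 0.965 in NTC. Its rise was 0.14 with shMed4 #4 (SE 0.06, edgeR adjusted p = 0.0419, up to 0.18 under 9 alternatives) and 0.22 with shMed4 #1 (SE 0.06, edgeR adjusted p = 0.0017). Eri1, an exonuclease that trims histone mRNA at the stem-loop, rose by 0.43 and 0.28, and the cap-binding subunit Ncbp1 by 0.27 and 0.23, with shMed4 #4 and shMed4 #1 in that order (all edgeR adjusted p under 0.05). Cyclins E, whose kinase CDK2 phosphorylates NPAT, rose too: Ccne1 by 0.94 and 0.60, and Ccne2 by 0.61 and 0.60 (all edgeR adjusted p under 0.05). Ccne2 shares 17.4% of its exon sequence with another gene.

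S-phase genes, which act in DNA replication, were higher for the most part. Of 31 tested, 19 rose and 3 fell with shMed4 #4 against NTC (median 0.21), where 27.8% of all genes tested were higher and 27.3% lower. With shMed4 #1, 19 rose and 2 fell (median 0.19), where 21.8% were higher and 19.8% lower. In the direct comparison of shMed4 #4 with shMed4 #1, 3 were higher and 2 lower (median 0.01). Rrm1, a subunit of ribonucleotide reductase, averaged 304 ± 4.28 CPM with shMed4 #4, 293 ± 9.56 with shMed4 #1 and 219 ± 8.74 in NTC (SD, n = 3 each). The helicase subunit Mcm3 rose by 0.48 and 0.27, with shMed4 #4 and shMed4 #1 in that order, and Rrm1 by 0.48 and 0.42. The helicase subunit Mcm5 changed by -0.40 and -0.27, and the GINS subunit Gins3 by -0.66 and -0.62 (all edgeR adjusted p under 0.05). Histone chaperones, which carry histones to and from DNA, had 10 that rose and 4 that fell of 27 with shMed4 #4, beside the same 27.8% and 27.3% of all genes. With shMed4 #1, 8 rose and 5 fell, beside 21.8% and 19.8%. Nap1l4 rose by 0.39 and 0.25 and Anp32e by 0.40 and 0.33, while Nap1l1 changed by -0.21 and -0.37 and the HIRA partner Ubn1 by -0.42 and -0.30 (all edgeR adjusted p under 0.05).

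**Figure D4:**
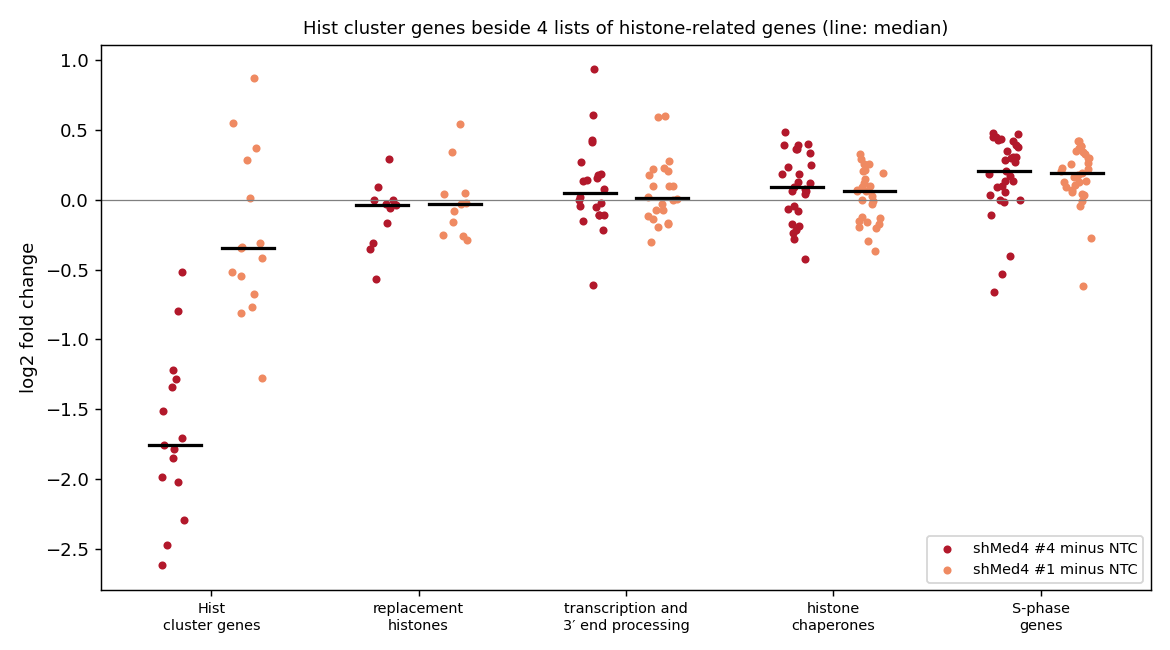
Log2 fold change against NTC (y axis) of the 15 tested Hist cluster genes and of the tested genes of 4 lists, with shMed4 #4 and shMed4 #1 side by side. Each point is a gene and each line a median. The Hist cluster genes have a median of -1.76 with shMed4 #4 and -0.34 with shMed4 #1, while the S-phase genes have medians of 0.21 and 0.19. Of the 15, 9 passed the low-count filter with no shMed4 #4 library at its minimum, which favours a low median with shMed4 #4. Without that filter the medians were -1.26 and -0.37 over 61 members.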

How the data were processed

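RNA of D2A1-d cells was sequenced on a BGISEQ-500, per the labels' protocols. Each deposited file lists raw read counts for every gene. The submitters' processing notes name STAR, HTSeq and the build mm10 (GRCm38), with versions, poly(A) selection and strand setting not given in the sources used here. The 5 summary lines of each file were left out: reads in no gene were 49.5 to 51.6% of records, alignments to several places 10.5 to 11.6% and ambiguous reads 0.863 to 0.951%. Of 55335 identifiers, 55154 matched GENCODE M21, and 3 Hist pseudogenes were left out. Libraries were grouped by their labels, and all pairs within a group differed by more than sampling noise (1.53 to 2.95 in chi-square over its degrees of freedom).

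Counts were fitted in R 4.3.3 with edgeR 4.0.16: filterByExpr (minimum count 10), TMM (factors 0.969 to 1.03), 1 quasi-likelihood model of the 3 groups (glmQLFit, glmQLFTest), and Benjamini-Hochberg adjustment over 14335 genes at 0.05. The common biological coefficient of variation was 0.0433. Sums are reads of the members scaled by the TMM-adjusted library size (CPM). Steps were tested on simulated counts. Precision from depth covers counting error only.

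Alternatives were DESeq2 1.42.0, limma-voom (limma 3.58.1), other scalings and filters, fits of only the groups compared, the replicate block, removal of the neighbours' shift and leaving out each library. The members and lists were chosen with earlier results of these data known. Every tested member could be named, untested ones from 20 reads, and from each list up to 4 genes with the smallest adjusted p for the mean of hairpins, plus Slbp and Npat. The 6 members with no read, the opposite-strand features, Zfp473, Srrt and Cdk2 were named after their values were seen. Of 24 listed processing genes, 22 matched by symbol.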

Additional observations from a re-analysis of the deposited data

Results flagged for a closer look

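Effects of the hairpins against NTC differed from each other for 12 of the 15 tested members, by the direct comparison of shMed4 #4 with shMed4 #1 in the same fit (edgeR adjusted p under 0.05). Every difference was negative, where 13.9% of all genes tested were lower and 14.2% higher. As 9 of the 15 passed the filter with no shMed4 #4 library at its minimum, this count gives no support to a difference of the family. On the log2 scale the differences were -2.31 for Hist1h2bg, -2.13 for Hist2h4, -1.81 for Hist1h2ac, -1.78 for Hist2h2aa2, -1.77 for Hist1h1c and -1.72 for Hist1h3g. They were -1.54 for Hist1h1d, -1.39 for Hist1h2bc, -1.24 for Hist1h1e, -1.18 for Hist2h2be, -1.17 for Hist1h2be and -0.99 for Hist1h3d. Between the hairpins, Med4 itself differed by 0.67 in favour of shMed4 #4 (edgeR adjusted p = 0.00401), so the hairpin with the lower histone sum left more Med4 transcript. Differences of Hist1h1e and Hist1h3d were lost under 13 and 7 alternatives, those of Hist1h2ac and Hist1h3g under 3 and 1. Hist1h2ac lost its call without shMed4 #4 replicate 2, without shMed4 #1 replicate 3 and with DESeq2, and Hist1h3g without shMed4 #1 replicate 3. For Hist1h1e every left-out library ended the call.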

How the results depend on the processing

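The sum of the family kept its direction under every scaling, left-out library and member choice tried as an alternative. Not all of its parts had that direction. H1 was 118% of NTC with shMed4 #1, and the 1 Hist4 gene, with 15 reads, had 208% of its shMed4 #1 level with shMed4 #4. The latter rests on 4 reads with shMed4 #4 against 2 with shMed4 #1, and the libraries overlapped. Leaving out libraries gave log2 ratios for the family of -1.49 to -1.41 for shMed4 #4 against NTC and -0.22 to -0.14 for shMed4 #1 against NTC. They were -1.31 to -1.24 for shMed4 #4 against shMed4 #1 and -0.85 to -0.77 for the mean of hairpins. Without Hist2h2be, the sums of shMed4 #1 and NTC overlapped. With only the tested members, the ratio of shMed4 #4 to shMed4 #1 was -1.41, against -1.27 for all members. Leaving out members with many shared windows, an alternative chosen after seeing the data, gave -1.43 for shMed4 #4 against NTC. With shMed4 #4 against NTC, 13 to 16 members were called when a library was left out and 19 without the low-count filter, against 14. For shMed4 #1 against NTC, with 5 called, DESeq2 called 2 higher and 0 lower, and leaving out libraries gave 3 to 6, with 3 without NTC replicate 2, NTC replicate 3, shMed4 #1 replicate 1 or shMed4 #1 replicate 2. For shMed4 #4 against shMed4 #1 that range was 9 to 12 of 12 called, and for the mean of hairpins 9 to 12 against 11. With both hairpins pooled as 1 group, 7 were called for the mean, and that construction takes the difference between hairpins as spread. Leaving out libraries moved the Med4 change within -2.0 to -1.81 with shMed4 #4, -2.66 to -2.54 with shMed4 #1 and -2.32 to -2.20 for the mean. Of 70 single-gene calls, 57 held under every alternative that gave a value, 13 were lost under at least 1 and 0 reversed. The fall of Hist2h2be with shMed4 #1 was lost in 5 settings, that of Hist1h3d in 5 and that of Hist1h2bp in 2. The falls with shMed4 #4 of Hist1h2be and Hist1h2bh were lost in 4 and 2, and the rise of Slbp in 9. The cause was not tested. Same-numbered libraries of different groups did not deviate together (9 pairs, r -0.0586 to 0.0352), so the counts showed no pairing by number. This cannot tell whether such libraries were handled together. With a replicate block, 14 members were called with shMed4 #4, 5 with shMed4 #1, 10 between the hairpins and 11 for the mean. Depth is a limit, as 52 of 67 members had too few reads for a test.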
